A study of Mus musculus with 15 samples.

Results

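The genes described here encode elastic fibres and their microfibrils. They are the 10 genes with the symbols *Eln*, *Fbn1*, *Fbn2*, *Mfap5*, *Fbln5*, *Efemp2*, *Efemp1*, *Fbln1*, *Fbln2* and *Lox*, taken by symbol from 2 tables of raw gene counts. All 10 had a row in both tables, 10 of 20910 genes in the table of cultured cells and 10 of 25038 in the table of tissue. All 10 passed the filter on low counts in each comparison, though *Eln* did so in the cultured cells only through the WT libraries. RNA was sequenced in 15 libraries. Of these, 9 were from mRPE, retinal pigment epithelium (RPE) cells cultured from pooled C57/BL6J mice of 8 to 12 weeks and immortalised with HPV E6/E7. The 4 WT libraries are of the line labelled mRPE WT, without a statement of whether they carried Cas9 or a control guide. The *Prom1*-KO mRPE cells stably expressed Cas9 and had received a guide against exon 5 of *Prom1*, and they are 2 clones, KO22 (3 libraries) and KO26 (2 libraries), each 1 line with its own deletion. The other 6 libraries were from RPE/choroid dissected from mouse eyes, 3 of WT mice and 3 of Prom1fl/fl mice crossed with RPE65-Cre mice and gavaged with Tamoxifen, in which the deletion is directed to the RPE while choroid is left unedited. Whether the WT mice carried Cre or received Tamoxifen is not given in the sources used here, and the age is given only for the project, as 6 to 8 weeks. The comparisons ask how the genes differ between each clone and WT, between the clones, and between the tissue groups.

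Elastic fibres give tissues their recoil. A core of cross-linked elastin is laid down on a scaffold of microfibrils, which are bundles of fibrillin, and fibulins bring elastin, fibrillin and the cross-linking enzymes together. Lysyl oxidases then join the chains covalently. In the eye an elastic layer lies in the middle of Bruch's membrane, the sheet of matrix between the RPE and the choroidal capillaries, to which both cell layers contribute, and *EFEMP1*, *EFEMP2*, *FBLN5* and *TIMP3* encode matrix proteins of that kind, of which *EFEMP1* and *TIMP3* are known for inherited macular disease.

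The stretches just upstream of 3 of the genes are shown first, since *Fbln5* and *Efemp1* fell and *Fbln1* rose in clone KO22. Of the 10 genes, 6 had an entry in the RefSeq promoter table (GRCm38.p6); *Eln*, *Fbn2*, *Mfap5* and *Lox* had none. Each stretch covers 195 bases, from 250 to 56 bases before the RefSeq start, and each matched its chromosome in GRCm39 at 1 place, where it ends before the first base of the canonical GENCODE transcript. They are chr15:85089900-85090094 on the plus strand for *Fbln1*, chr12:101785434-101785628 on the minus strand for *Fbln5* and chr11:28802955-28803149 on the plus strand for *Efemp1*, written 5′ to 3′ along the gene. Capitals mark matches on either strand to 6 motifs: the TATA box (TATAAA), the CCAAT box (CCAAT), the GC box (GGGCGG), a loose AP-1-like pattern (TGANTCA, with N for any base), an E-box (CACCTG) and the TEAD motif (CATTCC).
Fbln1: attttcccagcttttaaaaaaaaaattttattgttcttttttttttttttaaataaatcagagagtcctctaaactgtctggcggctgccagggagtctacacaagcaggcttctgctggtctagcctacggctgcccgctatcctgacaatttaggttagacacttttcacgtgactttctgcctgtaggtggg
Fbln5: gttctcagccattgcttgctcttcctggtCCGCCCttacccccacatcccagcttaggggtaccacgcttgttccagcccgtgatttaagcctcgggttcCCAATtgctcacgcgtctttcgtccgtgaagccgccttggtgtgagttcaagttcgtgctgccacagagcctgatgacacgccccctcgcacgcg
Efemp1: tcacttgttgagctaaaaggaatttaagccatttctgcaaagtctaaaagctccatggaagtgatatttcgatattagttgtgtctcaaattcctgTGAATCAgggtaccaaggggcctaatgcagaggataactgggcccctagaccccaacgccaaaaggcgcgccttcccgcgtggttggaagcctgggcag

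None of the 6 motifs was found in the *Fbln1* stretch. The stretches stop 56 bases before the RefSeq start, so a motif nearer to it, such as a TATA box there, could not be found. The *Fbln5* stretch held the GC box on the opposite strand, 221 bases before the start, and a CCAAT box 150 bases before it, motifs that 23.8% and 27.6% of 32851 promoter stretches of the same length held. The *Efemp1* stretch held TGAATCA 154 bases before the start, a match to the loose AP-1-like pattern with A as its free base. With any base allowed there, 5.37% of stretches held the pattern. The shares for the TATA box, the E-box and the TEAD motif were 8.95%, 14.2% and 10.4%. A match describes letters and not binding.

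Total counts were 8076188 to 27537863 in mRPE libraries and 48154444 to 61766179 in tissue libraries. The mRPE library names have 2 prefixes, called batch 1 (1 library each of WT, KO22 and KO26, replicate 1 in each group) and batch 2 (the others). Levels are given as CPM, counts scaled to library size, on the TMM scale, and a gene was called where edgeR's quasi-likelihood test gave a Benjamini-Hochberg adjusted p under 0.05 with an absolute log2 fold change over 1.2. Mitochondrial rRNA genes took 15.3% to 19% of counts in WT mRPE, 11.1% to 13.3% in KO22 and 11.3% to 14.4% in KO26, and their part in the results was not tested. The study set both KO26 libraries aside as outliers before its comparison of KO with WT, so every KO26 value here rests on libraries it did not use. Nothing states that replicates came from separate cultures or which animals they came from, so p-values measure the spread between these libraries, which may be technical. The cultured cells had few RPE transcripts. Only 4 of 12 RPE markers had a row in their table, with a summed level of 11.8 to 17.4 CPM in WT, and *Rpe65*, *Rlbp1*, *Lrat*, *Ttr*, *Otx2*, *Tyrp1*, *Krt8* and *Krt18* had none. Fibroblast and scleral markers, with 6 of 7 in the table, summed to 12805 to 17500 CPM there. In tissue all 12 RPE markers had a row and summed to 1537 to 2245 CPM in WT. *Prom1* had no row in the table of cultured cells and is not analysed there. In tissue, *Prom1* was at 48.7, 49.6 and 53.3 CPM in WT and 49.9, 48.1 and 35.5 CPM in KO, a log2 fold change of −0.18 ± 0.16 (SE; adjusted p = 0.824), so the deletion was not seen in the counts of the whole gene. Of the tissue libraries KO replicate 3 stood apart, with 80.4% of its counts on mitochondrial rRNA genes against 55.3% to 63.2% in the other 5, and the tissue results are also given without it.

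Clone KO22 had lower levels of most elastic fibre genes than WT, and 1 that was higher. Of the 10 genes, 7 fell (*Eln*, *Fbn1*, *Fbn2*, *Mfap5*, *Fbln5*, *Efemp1* and *Lox*) and *Fbln1* rose. *Eln* passed the count filter only through the WT libraries, so in the counts and medians of this paragraph it was open only to a fall. Over all 20455 genes tested, 13.8% were called lower and 11.4% higher. All 10 members passed the adjusted p alone, as did 53.0% of all genes, and for all 10 the 3 KO22 libraries lay entirely outside the range of the 4 WT libraries, as for 50.1% of all genes. The median log2 fold change was −2.15 over the 10 members and −0.03 over all genes. The members were chosen with earlier results of these data known, so their counts and median are a description. In clone KO26 only *Mfap5* fell and none rose, where 0.719% of 20737 genes were called lower and 1.21% higher. Both KO26 libraries lay under the WT range for 5 members and above it for 2, as 24.7% of all genes lay outside it in either direction. Its median over the 10 members was −0.56, and 0.03 over all genes. Both comparisons use the same 4 WT libraries, so the values of the clones are set side by side and the clones are compared directly afterwards. In these bulk samples, fewer cells of a type and less RNA per cell cannot be told apart.

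**Figure D1:**
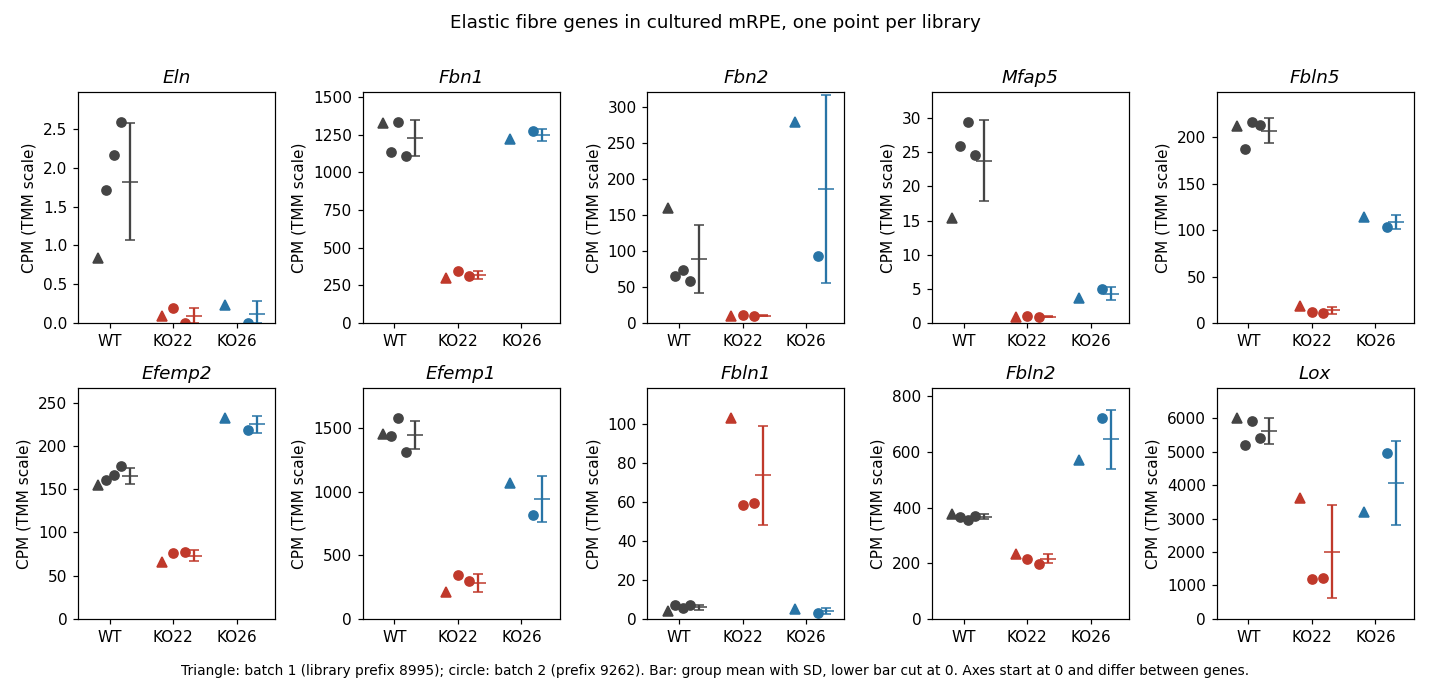
CPM on the TMM scale (vertical axis, from 0) of the 10 genes in the 4 WT, 3 KO22 and 2 KO26 libraries of cultured mRPE, with 1 point per library (triangles batch 1, circles batch 2) and the group mean with its SD. KO22 points lie below all WT points in 9 panels and above them for *Fbln1*, while KO26 points overlap WT for *Fbn1*, *Fbn2* and *Fbln1*.

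The core protein gene was near the limit of detection in culture. *Eln*, which encodes tropoelastin (chr5:134731445-134776322, GRCm39, minus strand), was at 0.83, 1.71, 2.16 and 2.58 CPM in WT, at 0.0865, 0.193 and 0 CPM in KO22 and at 0.23 and 0 CPM in KO26. These are 104 counts over the WT libraries, 5 over the KO22 libraries and 5 over the KO26 libraries, all 5 of the latter in replicate 1. Every library of either clone was under every WT library. In the mRPE comparisons *Eln* passed the count filter only through these WT libraries, the group in which it was high. Pooled over libraries and scaled by their sizes, the KO22 level was 0.068 of WT (exact 95% interval 0.0216 to 0.164) and the KO26 level 0.102 of WT (0.0323 to 0.245), intervals that cover counting error only. The fitted log2 fold change was −3.95 ± 0.58 (SE; adjusted p = 0.000407) in KO22. It was −3.02 ± 0.83 in KO26 and missed the threshold there (adjusted p = 0.077). It passed both limits in KO26 with DESeq2 (−3.29, adjusted p = 0.0127), with WT and KO26 libraries alone (−2.96, adjusted p = 0.0084 by edgeR) and without KO22 replicate 1 (−2.94, adjusted p = 0.0129 by edgeR). Fitted folds of a gene with so few counts depend on the prior count of the fit, and they came to −4.97 in KO22 without KO22 replicate 2 and −7.97 in KO26 without KO26 replicate 1.

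The 3 microfibril members, *Fbn1*, *Fbn2* and *Mfap5*, fell in KO22, and in KO26 only *Mfap5* did. *Mfap2*, another fibrillin-binding glycoprotein and no member, rose in KO22 (1.53, adjusted p = 0.000207). *Fbn1* encodes fibrillin-1, the main rod of adult microfibrils (chr2:125142514-125349913, minus strand). It was at 1324, 1138, 1331 and 1106 CPM in WT, 300.0, 347.5 and 311 CPM in KO22 and 1221 and 1275 CPM in KO26. KO22 formed a tight cluster far under WT, and KO26 lay inside the WT range. *Fbn1* had a log2 fold change of −1.94 ± 0.13 in KO22 (adjusted p = 5.01e-06) and 0.03 ± 0.15 in KO26 (adjusted p = 0.938).

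*Fbn2* encodes fibrillin-2, the microfibril protein best known from developing tissue. It was at 159.3, 66.1, 74.0 and 58.3 CPM in WT, 9.60, 10.7 and 10.1 CPM in KO22 and 278.4 and 93.8 CPM in KO26. KO22 was low and even in both batches, whereas the batch 1 library was the highest of its group in WT and in KO26. The log2 fold change was −3.06 ± 0.26 in KO22 (adjusted p = 1.46e-05) and 0.76 ± 0.28 in KO26 (adjusted p = 0.171). Within batch 1 alone it was −3.98 in KO22 and within batch 2 −2.61, from CPM with a pseudocount of 0.5 CPM and with no test.

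*Mfap5* encodes MAGP-2, a small glycoprotein that binds fibrillin (chr6:122470878-122508875, plus strand). It was at 15.3, 25.8, 29.4 and 24.6 CPM in WT, 0.95, 1.01 and 0.93 CPM in KO22 and 3.67 and 4.97 CPM in KO26. Both clones lay under WT in every library and did not overlap each other. It was the only member called in both clones, with a log2 fold change of −4.56 ± 0.21 (adjusted p = 7.02e-07) in KO22 and −2.30 ± 0.23 (adjusted p = 0.00164) in KO26. In KO22, 1.01% of all genes had a fold change as low.

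Of the fibulins that guide assembly, *Fbln5* and *Efemp1* fell in KO22, while *Efemp2* passed the adjusted p but not the limit on the fold. *Fbln5* encodes fibulin-5, which tethers tropoelastin and LOXL1 to microfibrils and to integrins (chr12:101712556-101785429, minus strand). It was at 211, 187.0, 215.6 and 213 CPM in WT, 18.3, 11.96 and 10.6 CPM in KO22 and 113.8 and 103.2 CPM in KO26. The clones lay in separate bands under WT, KO26 at about the middle of the span from 0 to WT. The log2 fold change was −3.98 ± 0.17 in KO22 (adjusted p = 4.64e-07) and −1.005 ± 0.17 in KO26, where the adjusted p was 0.0155 and the fold was under the limit. In KO26, 3.50% of all genes passed the adjusted p alone, and of the members *Mfap5*, *Fbln5* and *Fbln2* did. That fit shares its spread with KO22. With WT and KO26 libraries alone, edgeR's adjusted p was also under 0.05 for *Eln*, as given above, and for 3 members under the fold limit. These were *Fbn2* (0.61, adjusted p = 0.00457), *Efemp1* (−0.69, adjusted p = 0.00627) and *Efemp2* (0.44, adjusted p = 0.0166). *Fbn1*, *Fbln1* and *Lox* missed it, and 818 of all genes were called there, against 399.

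*Efemp1* encodes fibulin-3, an RPE matrix protein (chr11:28803150-28876825, plus strand). It was at 1457, 1442, 1580 and 1316 CPM in WT, 210.1, 343.0 and 298 CPM in KO22 and 1074 and 814.4 CPM in KO26. Every library of a clone was under every WT library. On the log2 scale the change was −2.36 ± 0.16 in KO22 (adjusted p = 5.06e-06) and −0.59 ± 0.21 in KO26 (adjusted p = 0.158).

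*Efemp2* encodes fibulin-4, which brings the lysyl oxidase LOX to tropoelastin (chr19:5523975-5532545, plus strand). It was at 155.4, 161, 167 and 176.7 CPM in WT, 65.6, 76.1 and 77.4 CPM in KO22 and 232.1 and 218.2 CPM in KO26. The clones stood on opposite sides of WT. In KO22 the change was −1.17 ± 0.10 on the log2 scale (adjusted p = 1.71e-05), just short of the fold limit, and it was called at −1.34 with upper-quartile scaling. In KO26 it was 0.48 ± 0.13 (adjusted p = 0.0666).

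The longer fibulins differed from each other. *Fbln1* encodes fibulin-1, which lies within elastic fibres and also binds fibronectin and laminin (chr15:85090150-85170737, plus strand). It was at 4.25, 7.20, 5.50 and 7.03 CPM in WT, 103, 58.4 and 59.8 CPM in KO22 and 5.06 and 3.01 CPM in KO26. It was high in KO22 alone, most so in the batch 1 library, and KO26 overlapped WT. Its log2 fold change was 3.59 ± 0.26 in KO22 (adjusted p = 6.27e-06), a size that 1.43% of all genes reached in that direction, and −0.63 ± 0.34 in KO26 (adjusted p = 0.329).

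*Fbln2* encodes fibulin-2, a partner of fibrillin-1 and tropoelastin (chr6:91189437-91249522, plus strand). It was at 376.4, 365, 356.4 and 371 CPM in WT, 232.8, 216 and 199.1 CPM in KO22 and 569.9 and 720.8 CPM in KO26. As for *Efemp2*, the clones stood on opposite sides of a narrow WT range. Its log2 fold change was −0.78 ± 0.10 in KO22 (adjusted p = 0.00022) and 0.81 ± 0.14 in KO26 (adjusted p = 0.0149), both under the fold limit.

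The cross-linking enzyme gene *Lox* encodes lysyl oxidase, which oxidises lysines of tropoelastin and collagen. It was at 5998, 5200, 5908 and 5407 CPM in WT, 3621, 1180 and 1227 CPM in KO22 and 3187 and 4961 CPM in KO26. All clone libraries were under WT, but the libraries of a clone did not agree: the batch 1 library was the highest in KO22 and the lowest in KO26. The log2 fold change was −1.77 ± 0.28 in KO22 (adjusted p = 0.00055). Within batch 1 it was −0.73 and within batch 2 −2.19, with no test. In KO26 it was −0.52 ± 0.37 (adjusted p = 0.462), and between −1.52 without KO26 replicate 2 and 0.01 without KO26 replicate 1.

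The clones differed from each other in most members. In the direct comparison of KO22 with KO26, 7 of 10 were lower in KO22 (*Fbn1*, *Fbn2*, *Mfap5*, *Fbln5*, *Efemp2*, *Efemp1* and *Fbln2*) and *Fbln1* was higher, against 10.7% of all genes called lower and 7.56% higher. The libraries of the clones did not overlap for 8 members, as for 47.9% of all genes. The log2 difference was largest for *Fbln1* (4.19 ± 0.36, adjusted p = 1.98e-05) and *Fbn2* (−3.80 ± 0.32, adjusted p = 1.77e-05). It was −2.97 ± 0.18 for *Fbln5* (adjusted p = 2.1e-06), −2.26 ± 0.26 for *Mfap5* (adjusted p = 0.00013) and −1.97 ± 0.15 for *Fbn1* (adjusted p = 1.02e-05). The remaining called members, *Efemp1*, *Efemp2* and *Fbln2*, had log2 differences of −1.76 ± 0.22, −1.65 ± 0.13 and −1.58 ± 0.15. *Efemp2* and *Fbln2*, which were under the fold limit against WT in both clones, were thus past it between the clones. *Lox* differed by −1.12 ± 0.38, with an adjusted p of 0.044, which 34.4% of all genes also passed, and a fold under the limit. It was called at −1.82 without KO22 replicate 1 and at −1.77 without KO26 replicate 1, and was −0.24 without KO26 replicate 2 (adjusted p = 0.695). For *Eln* the difference was −0.90 ± 1.18 (adjusted p = 0.595) and 4.03 without KO26 replicate 1, a size that the 10 counts of the 2 clones together could not resolve.

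**Figure D2:**
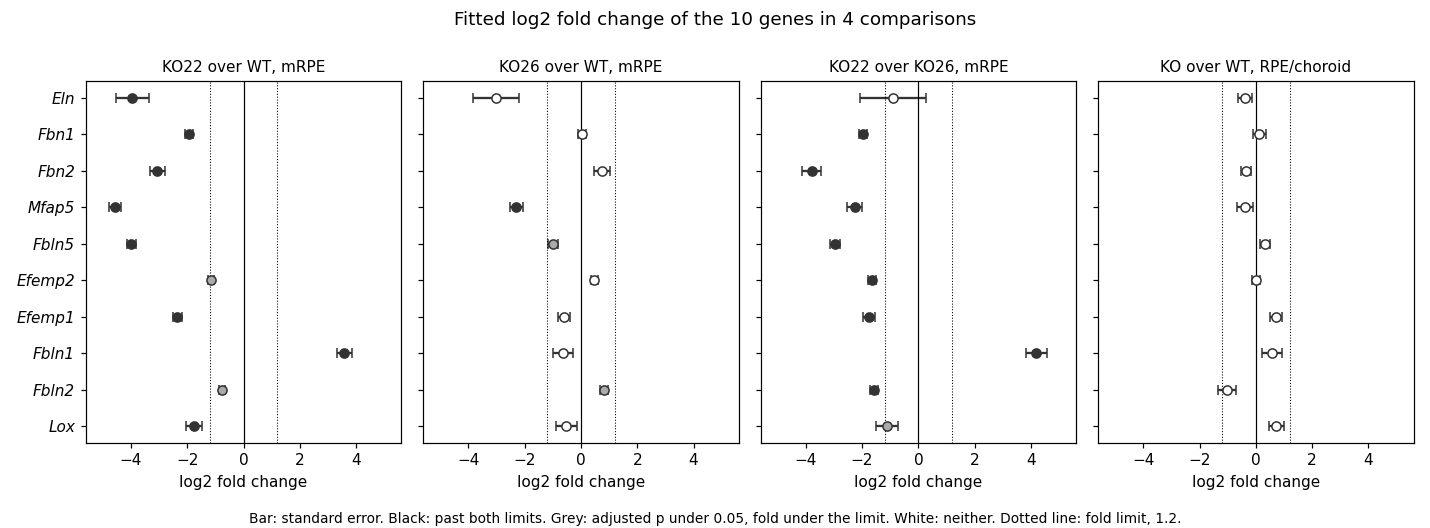
Fitted log2 fold change (horizontal axis) with its standard error for each of the 10 genes in KO22 over WT, KO26 over WT, KO22 over KO26 and tissue KO over WT, with dotted lines at the fold limit of 1.2. Black points passed both limits: 8 in the first panel, 1 in the second, 8 in the third and 0 in the fourth.

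Under 3 other scalings of the libraries, the 10 log2 fold changes of KO22 over WT kept their direction, with *Fbln1* between 3.41 and 3.59 and *Fbln5* between −4.16 and −3.98. Upper-quartile scaling moved the median of all genes from −0.03 to −0.21. All 10 also kept their direction within each batch, where *Mfap5* was at −3.45 in batch 1 and −4.20 in batch 2, *Fbln5* at −3.49 and −4.12, *Efemp1* at −2.79 and −2.17 and *Fbn1* at −2.14 and −1.85, with no test. Some whole chromosomes also differed in KO22. The median log2 fold change was −0.50 over the 776 tested genes of the *Fbln5* chromosome. It was −0.45 over the 1082 of the chromosome of *Mfap5* and *Fbln2*, −0.42 over the 646 of the *Efemp2* chromosome and 0.37 over the 748 of the *Fbln1* chromosome. Measured from those medians, *Fbln5* was at −3.48, *Mfap5* at −4.11, *Efemp2* at −0.75, *Fbln2* at −0.33 and *Fbln1* at 3.22. The chromosomes of the other members had smaller shifts. Their medians were −0.106 for *Eln*, 0.145 for *Fbn1*, −0.0539 for *Fbn2* and *Lox* and −0.031 for *Efemp1*. The part of chromosome dosage in these results was not tested.

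Ratios of pairs within a library need no scaling. The pairs were chosen after their values were seen and are given as a description. In WT mRPE, *Fbln5* had 26.0 to 49.7 counts for each count of *Fbln1*, with exact 95% intervals of counting error between 21.4 and 60.8 over the libraries. In KO26 the ratio was 22.5 and 34.3, and in KO22 it was 0.178, 0.205 and 0.178, so the order of the pair was turned in all 3 KO22 libraries. The 6 tissue libraries had 0.349 to 0.792. *Efemp1* had 7.45 to 9.47 counts per *Efemp2* count in WT mRPE, 3.20 to 4.51 in KO22 and 3.73 to 4.63 in KO26. Here both clones were under WT and overlapped each other. *Mfap5* had 0.0116, 0.0227, 0.0221 and 0.0223 counts per *Fbn1* count in WT mRPE, 0.00317, 0.00291 and 0.003 in KO22 and 0.003 and 0.0039 in KO26. The intervals of the 5 clone libraries overlapped, from 0.00155 to 0.00568, and lay under the lowest WT interval, which began at 0.0104. *Fbn2* counts per *Fbn1* count were 0.12 in WT batch 1 and 0.0527 to 0.0581 in WT batch 2, 0.0308 to 0.0325 in KO22, and 0.228 and 0.0736 in KO26 in batches 1 and 2. *Lox* counts per *Fbn1* count were 4.44 to 4.89 in WT and 12.1, 3.4 and 3.95 in KO22, where only replicate 1 was above WT.

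**Figure D3:**
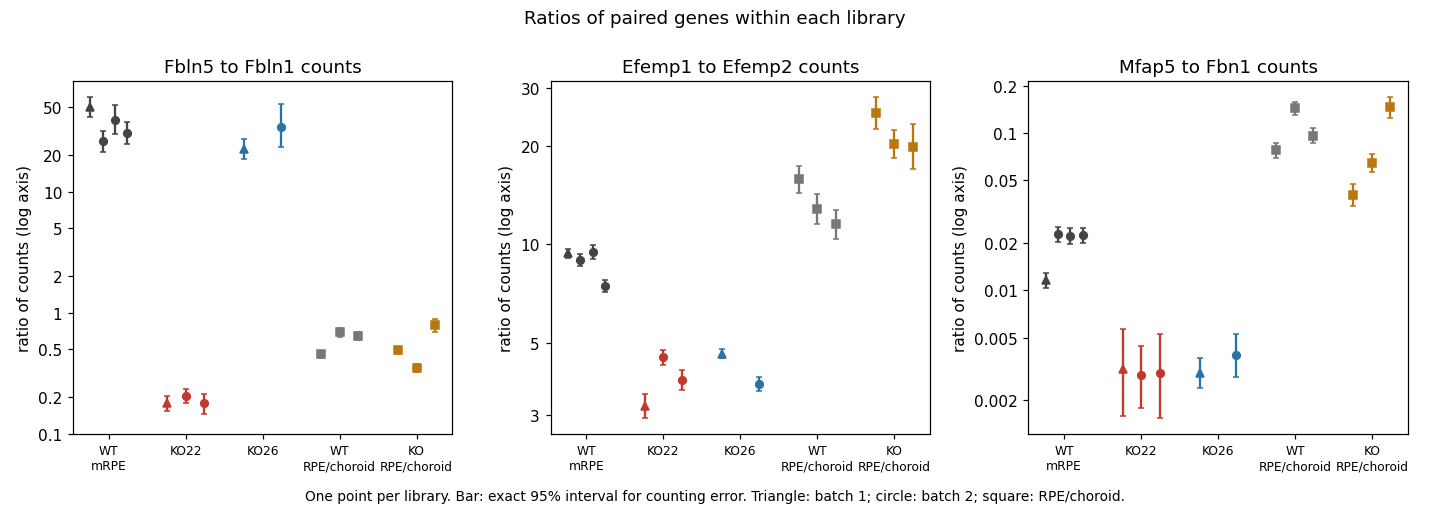
Ratio of raw counts within each library (vertical log axis) for *Fbln5* to *Fbln1*, *Efemp1* to *Efemp2* and *Mfap5* to *Fbn1* in 5 groups, with exact 95% intervals for counting error. For *Fbln5* to *Fbln1* the KO22 points sit near 0.2 and the WT mRPE and KO26 points between 22.5 and 49.7, while for *Mfap5* to *Fbn1* both clones sit between 0.00291 and 0.0039.

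Per length, the RNA level of *Lox* was above that of *Eln* in culture. Collagens, also substrates of the enzyme, were not put on this scale. CPM was divided by the length of the canonical transcript in kb. In WT mRPE, *Lox* was highest at 1178 ± 80.8 CPM per kb (SD, n = 4), followed by *Efemp1* at 666.8 ± 49.5, *Fbn1* at 102 ± 9.95, *Fbln2* at 76.8 ± 1.79, *Efemp2* at 74.3 ± 4.07, *Fbln5* at 33.3 ± 2.13, *Fbn2* at 8.04 ± 4.23, *Mfap5* at 5.48 ± 1.38, *Fbln1* at 2.57 ± 0.598 and *Eln* at 0.456 ± 0.187. Of neighbours in that order, only *Fbln2* and *Efemp2*, and *Fbn2* and *Mfap5*, overlapped between libraries. *Lox* made up 53.3% to 56.1% of the summed level per length of the 10 genes and *Eln* 0.00932% to 0.0318%.

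The order in KO22 kept *Lox* and *Efemp1* on top and *Eln* at the bottom, while *Fbln1* moved from the ninth place to the fifth, at 31.6 ± 10.9 CPM per kb (n = 3). There it overlapped *Efemp2* at 32.9 ± 2.90 and *Fbn1* at 26.6 ± 2.08. *Fbln5* was at 2.20 ± 0.663 CPM per kb. In KO26 the first and last places were also those of *Lox*, at 852.6 ± 262.5 CPM per kb (n = 2), and *Eln*, and *Mfap5* was ninth at 0.994 ± 0.213. Tissue had another order, on a scale normalized separately. *Efemp1* was first at 38.4 ± 7.91 CPM per kb in WT (n = 3), 52.5% to 58.9% of the sum, then *Fbln1* at 11.4 ± 3.12, *Fbn1* at 4.91 ± 0.674 and *Eln* at 3.49 ± 0.855, while *Lox* was eighth at 1.49 ± 0.387. From the fourth place on, neighbours overlapped apart from *Efemp2* and *Fbln5*. With the union of all annotated exons as the length, *Lox* was sixth and *Efemp2* eighth in tissue.

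**Figure D4:**
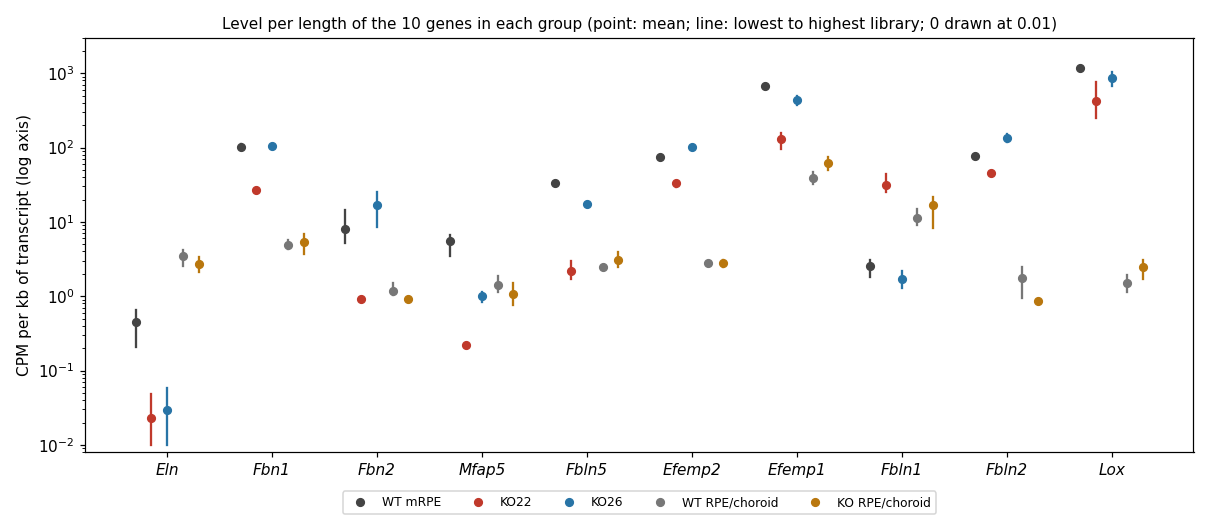
CPM per kb of canonical transcript (vertical log axis) of the 10 genes in WT mRPE, KO22, KO26, WT RPE/choroid and KO RPE/choroid, as the group mean and the span from the lowest to the highest library, with a level of 0 drawn at 0.01. *Lox* lies at 1178 in WT mRPE and 1.49 in WT RPE/choroid, and *Eln* at 0.456 and 3.49, on scales set separately for cells and tissue.

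Genes that work with elastic fibres were taken from 9 lists of 63 genes, of which 55 were tested in mRPE. In KO22, 10 were lower and 8 higher, shares to be read against 13.8% and 11.4% of all genes, and the median log2 fold change was −0.38. Of the other fibulins, *Hmcn1* (hemicentin-1) and *Fbln7* fell and *Hmcn2* rose, 3 of 3 called. The mean ± SD was 596.0 ± 91.0 CPM over the 4 WT libraries, 41.6 ± 16.0 over the 3 KO22 libraries and 632.3 ± 16.8 over the 2 KO26 libraries for *Hmcn1*, which fell in KO22 (−3.82 ± 0.19 on the log2 scale, adjusted p = 9.5e-07). *Fbln7* and *Hmcn2* were low throughout, with log2 fold changes of −1.75 ± 0.53 and 2.35 ± 0.31.

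Of the microfibril and elastin-associated partners, 1 of 10 fell and 3 rose in KO22. *Mfap4*, a fibrinogen-like glycoprotein of elastic fibres, stood at 49.3 ± 15.3 CPM in WT, 2.08 ± 0.516 in KO22 and 164.9 ± 19.2 in KO26. It fell in KO22 (−4.61 ± 0.22, adjusted p = 8.13e-07) and rose in KO26 (1.65 ± 0.19, adjusted p = 0.00385), and the clones differed by −6.25 ± 0.25 (adjusted p = 3.01e-07), the largest difference among the partners. *Vcan*, the proteoglycan versican that binds fibrillin-1, rose from 593.7 ± 47.1 to 2930 ± 365.9 CPM in KO22 (2.30 ± 0.14, adjusted p = 2.28e-06). *Mfap2* (1.53) and *Emilin2* (1.67), named after their values were seen, were the other members of the list that rose.

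Among ADAMTS-like proteins of microfibrils, 2 of 6 fell in KO22 and 1 rose in KO26. *Thsd4*, also called ADAMTSL6, which binds fibrillin-1, was at 10.2 ± 6.30 CPM in WT, 1.32 ± 1.10 in KO22 and 68.3 ± 36.7 in KO26. It fell in KO22 (−2.80 ± 0.76, adjusted p = 0.0116), rose in KO26 (3.02 ± 0.58, adjusted p = 0.0207) and differed between the clones (−5.77 ± 0.73, adjusted p = 0.000224), with wide spread inside each group. The other that fell in KO22 was *Adamtsl5* (−1.27), and of the latent TGF-beta binding proteins *Ltbp4* fell (−1.28), both named after their values were seen.

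Of elastase inhibitors, 1 of 5 fell and 2 rose in KO22. *Timp3*, an inhibitor of metalloproteinases that is held in Bruch's membrane, was at 627.4 ± 110.9 CPM in WT, 112.1 ± 109.5 in KO22 and 731.7 ± 1.54 in KO26. It fell in KO22 (−3.02 ± 0.38, adjusted p = 0.000164) and not in KO26 (0.04 ± 0.42, adjusted p = 0.974). *Slpi*, an inhibitor of neutrophil elastase, rose from 1.96 ± 0.496 to 71.0 ± 52.3 CPM (4.92 ± 0.31, adjusted p = 2.83e-06) and *Timp1* from 76.4 ± 15.4 to 388.1 ± 21.7 CPM (2.34 ± 0.14, adjusted p = 2.75e-06). Of 7 elastases, *Mmp9* was higher in both clones, from 1.92 ± 0.629 CPM in WT to 4.54 ± 0.215 in KO22 and 7.31 ± 1.93 in KO26 (log2 fold change 1.29, adjusted p = 0.00317, and 2.02, adjusted p = 0.00859). The lysosomal elastase *Ctsk* rose in KO26 (1.36 ± 0.25, adjusted p = 0.0196).

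Of 8 integrin chains that bind fibulin-5, fibrillin or latent TGF-beta complexes, 3 fell and 1 rose in KO22. *Itga8* fell from 107.6 ± 24.9 to 3.89 ± 1.78 CPM (−4.88 ± 0.32, adjusted p = 3.61e-06). *Itga9* (−1.34) and *Itgb8* (−1.23) fell and *Itgb3* (1.28) rose, named after their values were seen. None of 6 genes of the other lysyl oxidases and copper supply was called in KO22, and none of 6 for processing and folding. *Loxl1*, the paralogue of *Lox* that is needed to maintain elastic fibres, was at 96.0 ± 14.4 CPM in WT, 66.1 ± 2.35 in KO22 and 96.4 ± 38.0 in KO26, a log2 fold change of −0.55 ± 0.12 in KO22 (adjusted p = 0.00328) that was under the fold limit. In KO26, 4 of the 55 partners rose (*Thsd4*, *Mmp9*, *Mfap4* and *Ctsk*) and none fell, where 1.21% of all genes were called higher and 0.719% lower. Between the clones 10 were lower in KO22 and 5 higher, where 10.7% of all genes were called lower and 7.56% higher.

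Markers of matrix-making and vessel cells also differed between the cultures. The fibroblast and scleral markers summed to 5565 to 8668 CPM in KO22 and to 19867 and 21795 CPM in KO26, against 12805 to 17500 CPM in WT, and 3 of 6 were called lower in KO22. Smooth muscle and pericyte markers, all 7 in the table, summed to 963.0 to 2046 CPM in WT, 271.0 to 392.4 in KO22 and 2280 and 1236 in KO26, and of the 6 tested in KO22, 4 were called lower and 1 higher. Endothelial markers, 4 of 7 in the table and without *Cdh5*, *Tie1* and *Emcn*, summed to 152.2 to 235.4 CPM in WT, 3.34 to 5.16 in KO22 and 73.8 and 56.2 in KO26, yet of the 4 only 1 was called lower in KO22 and 1 was called higher. In KO26 the fibroblast sum was above WT, the smooth muscle sum overlapped WT and the endothelial sum was under WT. Of the members, 5 lay under the WT range and 2 above it in KO26, where 24.7% of all genes lay outside it in either direction. The part of these markers in the changes of the elastic fibre genes was not tested. The 10 members together took 0.889% to 0.969% of all counts in WT, 0.216% to 0.445% in KO22 and 0.597% and 0.88% in KO26, and *Lox* was the most abundant of them in each mRPE library.

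In RPE/choroid none of the 10 genes was called, where 47 of 24926 genes were (0.189%). With DESeq2 the count among the members was also 0, and 3 members (*Efemp1*, *Fbln2* and *Lox*) had an unadjusted p under 0.05 with edgeR, as did 8.3% of all genes. For 3 members the KO libraries lay outside the WT range, as for 14.6% of all genes. *Efemp1* was at 102.7, 78.3 and 69.5 CPM in WT and 161.2, 139 and 109.4 CPM in KO. All 3 KO libraries were above all 3 WT libraries, with a log2 difference of 0.71 ± 0.21 (adjusted p = 0.379). Over the scalings tried, that difference lay between 0.31 and 0.71. KO replicate 3 had 3297 counts of *Efemp1* among 61766179, so its place above WT depends on its TMM factor of 0.488. *Fbln2* was at 4.52, 11.8 and 9.18 CPM in WT and 4.29, 4.41 and 3.85 CPM in KO. It was lower in all KO libraries, though WT replicate 1 lay just above them, with a log2 difference of −1.02 ± 0.33 (adjusted p = 0.433). *Fbn2* was at 11.5, 16.6 and 11.5 CPM in WT and 10.8, 10.0 and 10.1 CPM in KO (−0.36 ± 0.17, adjusted p = 0.667).

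The other members overlapped between the tissue groups. *Eln*, was at 10.2, 16.9 and 14.8 CPM in WT and 13.5, 10.1 and 8.43 CPM in KO (−0.38 ± 0.24, adjusted p = 0.748). *Lox* was at 5.46, 9.10 and 6.75 CPM in WT and 12.2, 8.08 and 14.9 CPM in KO (0.72 ± 0.27, adjusted p = 0.536). *Fbln1* was at 34.8, 21.1 and 23.7 CPM in WT and 50.6, 48.4 and 19.4 CPM in KO (0.57 ± 0.37, adjusted p = 0.75). KO replicate 3 was the lowest KO library for *Fbln1* and the highest for *Lox*. *Fbn1*, *Mfap5*, *Fbln5* and *Efemp2* had log2 differences of 0.12 ± 0.23, −0.39 ± 0.30, 0.32 ± 0.19 and 0.01 ± 0.14, with adjusted p-values of 0.721 to 0.993. Of the tissue values that moved most without KO replicate 3, *Fbln1* came to 0.89 ± 0.22 (adjusted p = 0.312), *Mfap5* to −0.70 ± 0.27 (adjusted p = 0.499) and *Lox* to 0.50 ± 0.28 (adjusted p = 0.669). *Efemp1* came to 0.83 ± 0.19 (adjusted p = 0.277), none of the 10 was called and none changed sign. These p-values that miss the threshold do not show that the groups were alike.

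**Figure D5:**
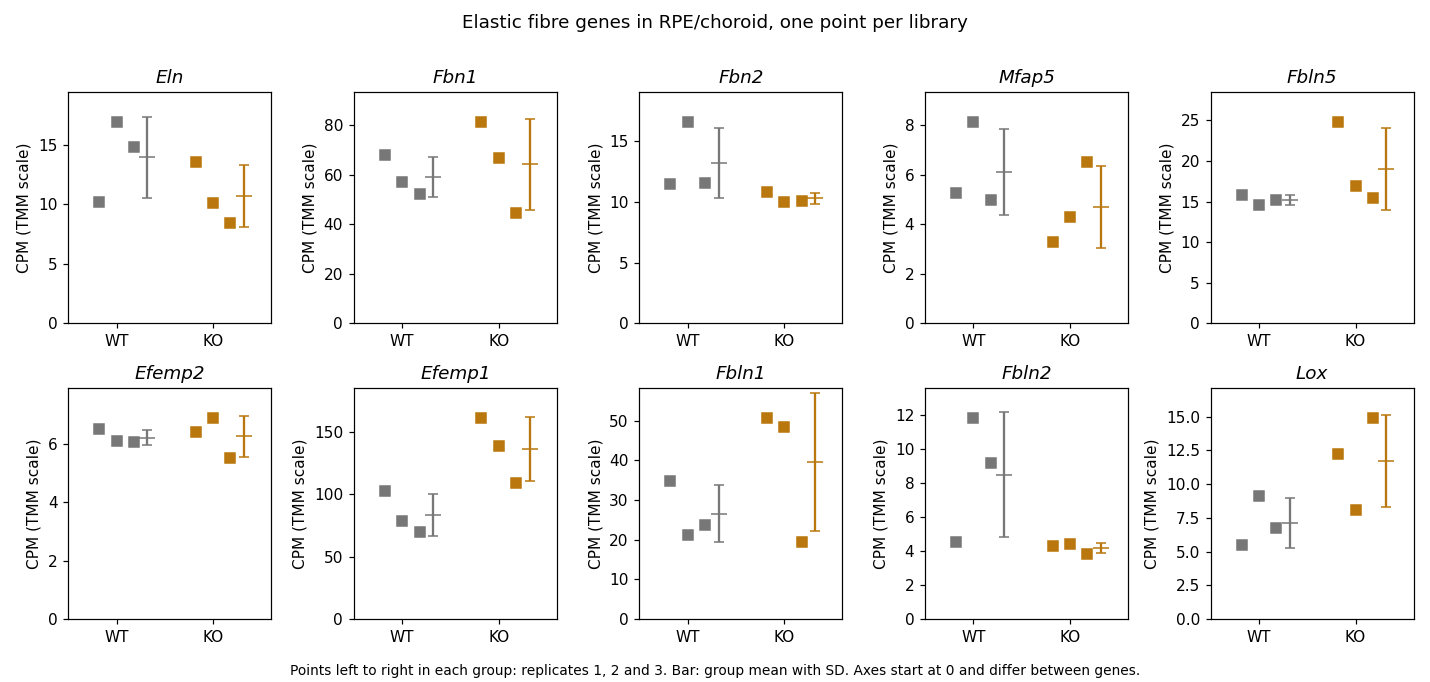
CPM on the TMM scale (vertical axis, from 0) of the 10 genes in 3 WT and 3 KO libraries of RPE/choroid, with 1 point per library in the order of the replicates and the group mean with its SD. The groups are apart for *Efemp1* (KO higher), *Fbln2* and *Fbn2* (KO lower) and overlap in the other 7 panels.

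The *Efemp1* to *Efemp2* ratio was 11.5 to 15.8 in WT tissue and 19.9 to 25.2 in KO tissue, so that the groups were also apart within libraries, while their counting intervals, 10.4 to 17.4 and 17.0 to 28.2 over the libraries, overlapped a little. Of the 61 partners tested in tissue, 0 were called. *Timp3*, a major RPE transcript, was at 534.6 to 670.6 CPM in WT and 345.8 to 415.3 CPM in KO, groups that did not overlap (−0.62 ± 0.17, adjusted p = 0.323), and *Loxl1* had a log2 difference of −0.22 ± 0.14 (adjusted p = 0.751). RPE markers were lower in the KO tissue libraries, at 579.2 to 787.9 summed CPM against 1537 to 2245, and 3 of 12 were called lower. Fibroblast and scleral markers summed to 922.2 to 1915 CPM in WT and 813.8 to 1869 CPM in KO, smooth muscle and pericyte markers to 374.3 to 447.2 and 347.9 to 399.6 CPM, endothelial markers to 92.2 to 186.3 and 59.0 to 80.2 CPM, and skeletal muscle markers to 235.1 to 698.8 and 35.7 to 626.2 CPM. Melanocyte and Schwann markers were higher in KO without overlap, at 670.1 to 741.3 summed CPM against 394.5 to 643.1, as were lens and cornea markers, with 2 of 4 in the table, at 457.4 to 571.4 against 208.4 to 377.3, and none of either list was called. Macrophage markers summed to 85.8 to 104.2 CPM in WT and 84.7 to 110.1 in KO, and photoreceptor markers to 38.8 to 1101 and 18.7 to 527.6 CPM. The part of tissue composition in the values of the elastic fibre genes was not tested.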

How the data were processed

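RNA-seq gene counts were analysed in 15 libraries, 9 of mRPE and 6 of RPE/choroid. The authors trimmed reads with Trim Galore 0.6.7, mapped them on mm39 with STAR in its gene count mode, dropped genes with low counts and deposited raw counts. The study's methods state this for the mRPE cells. For RPE/choroid the tools come from the submitters' processing notes, and the annotation is not given in the sources used here. Labels name an NEB stranded kit and the methods an Illumina TruSeq one. The deposited normalized tables were not used, and 0 columns of counts were left unmapped.

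Groups were taken from the sample labels. Tests used edgeR 4.0.16 in R 4.3.3 (quasi-likelihood test, TMM, Benjamini-Hochberg over all genes) on genes that reached 5 counts in 3 or more libraries, with the library prefix as a term in mRPE. KO22 was compared with WT over 7 libraries, and KO26 with WT and KO22 with KO26 in one fit over 9. Genes were called as the report states. Standard errors were derived from the fold change and the F statistic (log2 fold change over root F, without sign). In simulated counts where 200 genes had a log2 shift of 2, edgeR found 193 for KO22, 176 for KO26, 160 for KO22 against KO26 and 177 for RPE/choroid. False calls among the unchanged genes were 3, 8, 3 and 14 in that order. The changed genes were drawn from those above a minimum mean level. No shift between batches and no difference in the third mRPE group was simulated, so these figures do not cover low genes or batch shifts. Replicate libraries differed by more than sampling noise, with a chi-square per degree of freedom of 4.8 to 79.6 in mRPE and 16.3 to 247 in tissue. Intervals of ratios are exact at 95% and cover counting error only.

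The members, partner lists and tests were chosen with earlier results of these data known. Named were all 10 members, the 10 called partners with the largest change in KO22, up to 5 in each other comparison, *Timp3* and *Loxl1*. Alternatives were DESeq2's size factors, upper-quartile and total-count scaling, DESeq2 1.42.0, no count filter, no fold limit, no batch term, other sets of libraries and each library left out. Leaving out mitochondrial genes, union exon lengths and within-batch values of KO26 were added after seeing the data. Coordinates and lengths come from GRCm39 and GENCODE vM39, promoter stretches from RefSeq. *Prom1* in mRPE was not analysed here.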

Additional observations from a re-analysis of the deposited data

Results flagged for a closer look

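Of the 10 members in the 4 WT mRPE libraries, 2 had a library whose gap to its nearest neighbour was a larger part of the group's range than Dixon's 95% limit allows, which chance gives in about 1 in 20 groups. *Fbn2* was at 159.3 CPM in WT replicate 1, the only WT library of batch 1, and *Fbln5* was at 187.0 CPM in WT replicate 2.

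The 2 *Prom1*-KO clones differed from each other, by edgeR's direct test of KO22 over KO26, in 9 of the 10 members at an adjusted p under 0.05, which 34.4% of all genes passed. The log2 fold changes of the members were −1.97 for *Fbn1*, −3.80 for *Fbn2*, −2.26 for *Mfap5*, −2.97 for *Fbln5*, −1.65 for *Efemp2*, −1.76 for *Efemp1*, 4.19 for *Fbln1*, −1.58 for *Fbln2* and −1.12 for *Lox*. Named partners past the same limit are given as a description, since they were chosen as called genes with large changes in comparisons that share these libraries. Theirs were −6.25 for *Mfap4*, 1.63 for *Vcan*, −3.45 for *Fbln7*, −4.04 for *Hmcn1*, 1.32 for *Hmcn2*, −5.77 for *Thsd4*, 1.76 for *Timp1*, −2.92 for *Timp3*, 4.49 for *Slpi* and −3.20 for *Itga8*. Each clone is 1 line, so clone and genotype cannot be told apart.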

How the results depend on the processing

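The 8 calls among the members in KO22 over WT held under each scaling, DESeq2, no count filter, no batch term, one fit of 9 libraries and each library left out, and *Efemp2* was called in addition with upper-quartile scaling, with total counts and without WT replicate 2, KO22 replicate 2 or KO22 replicate 3. Of 150 alternative values of the members in KO22 over WT, 143 kept direction and call and 7 became calls; in KO26 over WT 158 of 170 kept both, in KO22 over KO26 165 of 169 and in RPE/choroid 122 of 130. KO26 has only 2 libraries, both set aside by the study. Its called members were 1, but 2 with DESeq2, 2 with WT and KO26 libraries alone, 3 with no limit on the fold, and 1 to 2 with a library left out, where *Eln* was the addition without KO22 replicate 1. Its called genes were 399 of all genes, but 629 with DESeq2, 725 with no fold limit, 194 with no batch term, 818 with WT and KO26 alone and 114 (without KO26 replicate 1) to 878 (without KO22 replicate 1) with a library left out. Its called partners were 10 with no fold limit, 2 with no batch term, 7 with WT and KO26 alone and 2 to 6 with a library left out. With no fold limit, KO22 over WT had 10837 genes and 43 partners, and KO22 over KO26 7132 genes and 34 partners; KO22 and KO26 libraries alone gave 2336 genes. In RPE/choroid, 47 genes became 88 with total counts, 271 with DESeq2 and 9 (without KO replicate 2) to 40 with a library left out, and partners called were 1 with total counts, 3 with DESeq2 and 0 to 1 with a library left out. Upper-quartile scaling moved the higher share of calls from 45.4% to 35.2% in KO22 and from 62.7% to 48.9% in KO26, DESeq2 from 0% to 30.6% in RPE/choroid, and total counts moved the RPE/choroid median from 0.01 to −0.46.

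Several values changed sign. *Fbn1* in KO26 (0.03) was −0.098 with upper-quartile scaling, −0.0101 with WT and KO26 alone, and −0.0337 to 0.122 with a library left out. *Lox* in KO26 (−0.52) was −1.52 to 0.00747 with a library left out, the latter without KO26 replicate 1. *Eln* in KO22 over KO26 (−0.90) was −2.06 to 4.03 with a library left out, the latter without KO26 replicate 1, which held all KO26 counts of *Eln*. In RPE/choroid with total counts, *Fbn1* was −0.25, *Fbln5* −0.0889 and *Efemp2* −0.42. With a library left out there, *Fbn1* (0.12) was −0.0907 to 0.316 and *Efemp2* (0.01) −0.0615 to 0.0812. The causes of these shifts were not tested. *Lox* made up 54.8%, 56.6% and 50.7% of the summed level per length in WT, KO22 and KO26, and 67.8%, 68.5% and 63.0% with union exon lengths. Depth limits *Eln* and *Mfap5* in the clones. No paired analysis was possible because the labels number no replicates (the numbers used here follow accession order), and the library prefix was already a term in the mRPE fits.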
